A study of Mus musculus with 8 samples.

Results

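The TNF superfamily ligands Tnfsf4, Tnfsf9, Cd70, Tnfsf10, Tnfsf11, Tnfsf13b, Lta and Ltb and the receptor Tnfrsf14 were followed in spleens and lymph nodes of mice with Aire knocked out or wild-type. Members were every probe set whose single gene symbol in the array annotation was 1 of these 9 names. This gave 14 probe sets of 45037, for 9 genes of 18193. Messenger RNA was measured on 8 Affymetrix arrays, 2 each (named A and B) of Aire-knockout spleen, Aire-wild-type spleen, Aire-knockout lymph node and Aire-wild-type lymph node. The series concerned tolerance through cells that express Aire, the autoimmune regulator, outside the thymus. The labels give no strain, age, treatment, cell type or sorting step, nor how Aire was disrupted, nor what the letters mark. They do not say whether the samples were whole tissue or cells taken from it, and marker signals are given below.

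TNF superfamily ligands are membrane-bound or shed proteins that act as trimers on receptors of the TNF receptor superfamily. Many are carried by antigen-presenting cells and lymphocytes, where they set T cell costimulation, B cell survival, cell death and the building of lymphoid organs. Tnfsf4 (OX40 ligand), Tnfsf9 (4-1BB ligand) and Cd70 costimulate T cells. Tnfsf11 (RANKL) drives osteoclast and thymic medullary epithelial development and acts on dendritic cells, Tnfsf10 (TRAIL) can trigger cell death, and Tnfsf13b (BAFF) sustains B cells. Lta and Ltb form the lymphotoxins, which organise lymph nodes and spleen. Tnfrsf14 (HVEM) is a receptor that binds Tnfsf14 (LIGHT) and Lta, and that also engages the inhibitory receptor Btla and Cd160.

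In spleen, signals of Tnfsf4, Tnfsf9, Cd70, Tnfsf11 and Tnfrsf14 were higher on both knockout arrays than on both wild-type arrays, and that of Ltb was lower on both. Such separation occurred upward in 13.3% and downward in 23.9% of the tested genes. Lta overlapped. In lymph node the knockout and wild-type arrays overlapped for all 7 members that could be tested, where 30.9% of tested genes were separated in either direction. Tnfsf10 and Tnfsf13b were too low to be tested. Their probe sets 1439680_at and 1460255_at were separated in lymph node, upward and downward, which the other probe sets of each gene did not repeat. No member passed the adjusted test in any contrast, and neither did any other gene (0% of those tested). The clearest difference between tissues was for Tnfsf9, lower in spleen than in lymph node on every array, and for Lta, higher in spleen on every array, patterns shared by 1.90% and 3.82% of tested genes.

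Signals below are the deposited array signals after scaling each array to a common median. For differences, a floor of 9.58 was used, which is the 20th percentile over all arrays. A gene was tested where its signal exceeded 59.0, the pooled median, on at least 2 arrays, which left 11557 genes. Tnfsf4, Tnfsf9, Cd70, Tnfsf11, Lta, Ltb and Tnfrsf14 passed and Tnfsf10 and Tnfsf13b did not. Differences are on the log2 scale with their standard error (SE), from limma with Benjamini-Hochberg adjustment over the 11557 genes, and a gene was called at an adjusted p under 0.05. These are RNA levels of bulk samples, in which fewer cells of a type and less RNA per cell cannot be told apart.

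Aire itself gave 1009 and 2376 on the knockout spleen arrays A and B and 5037 and 5204 on the wild-type spleen arrays. On the lymph node arrays it gave 791 and 1137 on the knockout arrays and 3052 and 3535 on the wild-type arrays. Aire was thus lower on every knockout array of each tissue, by 1.76 on the log2 scale over both tissues (difference -1.76 ± 0.33 SE, limma adjusted p = 0.237), which did not pass. The sources used here do not give the position of its probe set relative to the disrupted part. The arrays of a group also differed in makeup. The mean log2 signal of 3 Y-linked genes was 8.01 and 9.08 on knockout spleen A and B, 4.13 and 8.52 on wild-type spleen, 7.31 and 9.46 on knockout lymph node and 3.95 and 8.92 on wild-type lymph node. The wild-type A arrays were thus the lowest of their tissue. Of 12 macrophage markers 11 were measured, and their summed signal was 24818 and 3688 on knockout spleen A and B, against 4764 and 2538 on wild-type spleen. It was 19840 and 7687 on knockout lymph node, against 9094 and 2557 on wild-type lymph node. None of the 11 was under the floor on all arrays. All 11 had a difference above 0 in both tissues, against 42.6% of tested genes in spleen and 46.8% in lymph node. In spleen the differences ranged from 0.19 ± 0.56 for Vcam1, whose arrays overlapped, to 4.73 ± 1.36 for Cd5l. Knockout spleen A also stood apart in other marker lists. Its neutrophil and monocyte markers summed to 8942, against 107 to 467 on the other 7 arrays, and its plasma cell markers to 14867, against 2124 to 6008. The 9 measured B cell markers summed to 2472 on that array, against 503 to 1247 on the other 7, and the 10 measured T cell markers to 2241, against 654 to 1758. Cd8a at 1030 and Cd4 at 844 made up most of that T cell sum. Against both wild-type spleen arrays, Cd4, Cd8a, Cd8b1 and Cd5 were higher there, Cd3d, Cd3e, Cd3g, Zap70 and Lat lower, and Trat1 between. Of the B cell markers, Ms4a1, Cd79a, Cd79b, Cd22 and Ebf1 were higher there, Fcer2a lower, and Pax5, Blk and Cr2 between. Markers of migratory mature dendritic cells summed to between 41952 and 65495 over the 8 arrays, against 654 to 2241 for T cell and 503 to 2472 for B cell markers. Conventional dendritic cell markers summed to between 3440 and 5331, and Il4i1 of the migratory list stayed between 7.04 and 34.5. Sums over different genes do not measure the share of a cell type. Every measured marker of these lists was above the floor on at least 1 array. The part of these markers in the members' differences was not tested.

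**Figure D1:**
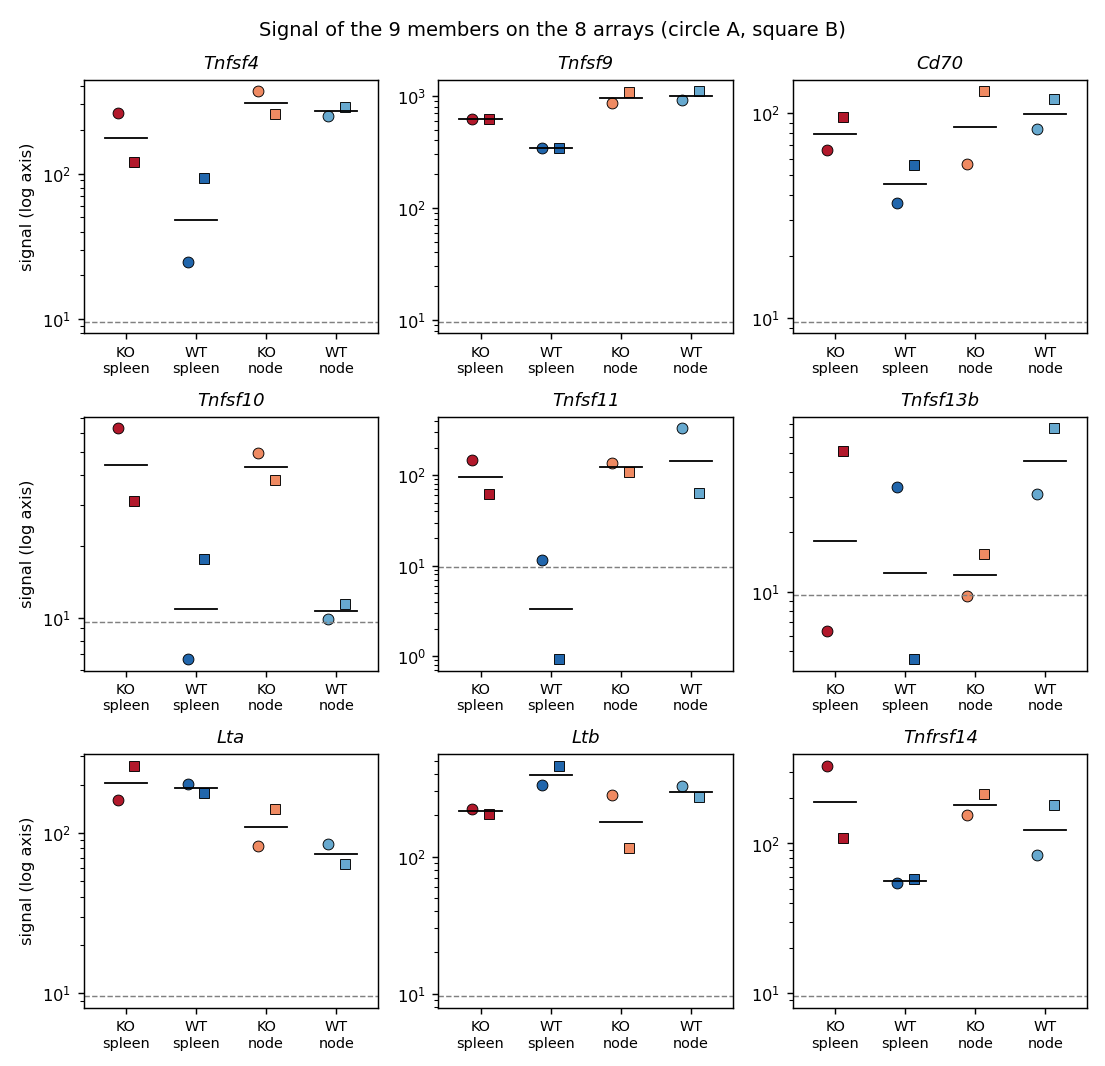
Scaled signal (log axis) of the 9 members by group, each from its representative probe set. KO is Aire-knockout and WT Aire-wild-type, circles are A arrays, squares B arrays, bars the geometric mean of 2 arrays and the dashed line the floor of 9.58. Both KO spleen points lie above both WT spleen points for Tnfsf4, Tnfsf9, Cd70, Tnfsf10, Tnfsf11 and Tnfrsf14, and below them for Ltb.

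The T cell costimulatory ligands come first. Tnfsf4, the ligand through which antigen-presenting cells engage OX40 on activated T cells, gave 262 and 119 on knockout spleen A and B, against 24.6 and 93.0 on wild-type spleen. Lymph node gave 367 and 256 on the knockout arrays and 248 and 288 on the wild-type arrays. The spleen groups were separated, but by a narrow margin between the B arrays, and the lymph node groups overlapped. The spleen difference was 1.89 ± 0.68 (SE, n = 2 arrays each, limma adjusted p = 0.541) and did not pass. It ranged between 0.93 without wild-type spleen A and 2.85 without wild-type spleen B, so its size depended on which wild-type array was kept. With the Y-linked mean as a covariate it was 1.57. In lymph node the difference was 0.20 ± 0.68 (limma adjusted p = 0.9998).

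Tnfsf9, the ligand of 4-1BB, was the member whose replicate arrays lay closest together in spleen. It gave 622 and 625 on knockout spleen A and B, against 345 and 342 on wild-type spleen. On the lymph node arrays it gave 871 and 1072 in knockout, against 921 and 1099.5 in wild-type. Every spleen array was thus below every lymph node array, and the spleen groups stood apart by far more than the arrays of a group. The spleen difference of 0.86 ± 0.30 had an interval of 0.15 to 1.57 at 95% and corresponded to 1.82-fold. It did not pass (limma adjusted p = 0.526), and leaving out any 1 spleen array moved it only between 0.86 and 0.87. The lymph node difference was -0.06 ± 0.30, with an interval of -0.77 to 0.65. Spleen and lymph node differed in this knockout effect by 0.92 ± 0.42 (limma adjusted p = 0.999), which did not pass.

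Cd70, the ligand of Cd27, gave 65.9 and 95.9 on knockout spleen A and B, against 36.5 and 55.8 on wild-type spleen. Lymph node gave 56.7 and 128 in knockout, against 83.3 and 117 in wild-type. Both knockout spleen arrays were higher, while the lymph node ranges overlapped, with the knockout arrays enclosing the wild-type ones. The differences were 0.82 ± 0.49 in spleen (limma adjusted p = 0.705) and -0.21 ± 0.49 in lymph node (limma adjusted p = 0.9998). The spleen value was 0.51 without wild-type spleen A, 1.12 without wild-type spleen B and 0.45 with the Y-linked covariate. Tnfsf9 and Cd70 are direct neighbours on mouse chromosome 17, followed by Tnfsf14.

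Tnfsf11 had the largest spleen difference of the tested members and the widest spread between arrays. Its probe set 1419083_at gave 146 and 61.9 on knockout spleen A and B, against 11.7 and 0.928 on wild-type spleen. Lymph node signals were 136 and 109.8 on the knockout arrays, against 330.3 and 63.7 on the wild-type arrays. Wild-type spleen was therefore near or under the floor, while the lymph node wild-type arrays enclosed both knockout arrays. With wild-type spleen B raised to the floor, the spleen difference was 3.17 ± 0.78, or 8.98-fold, and did not pass (limma adjusted p = 0.377). The floor also drew the wild-type spleen pair together, to a standard deviation of 0.20 on the log2 scale. The SE and p-values of Tnfsf11 therefore depend on it. Without a floor the difference was 4.85. Leaving out knockout spleen A gave 2.55 and leaving out knockout spleen B gave 3.79, and the Y-linked covariate gave 3.84. The lymph node difference was -0.25 ± 0.78 and lay between -1.43 without wild-type lymph node B and 0.94 without wild-type lymph node A. Averaged over tissues it was 1.46 ± 0.55 (limma adjusted p = 0.578), with 0.87 and 2.05 when those same arrays were left out. The difference between the tissues, 3.41 ± 1.10, was the only such difference among the members with an unadjusted p under 0.05 and did not pass (limma adjusted p = 0.999). The background was 3.42% of all tested genes. Its other probe set, 1451944_a_at, stayed under the floor on all 8 arrays, between 1.06 and 2.19.

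Tnfsf10 and Tnfsf13b had low signals and probe sets that disagreed, so no fold is given for either gene. For Tnfsf10, probe set 1439680_at gave 63.0 and 31.0 on knockout spleen A and B, against 6.68 and 17.6 on wild-type spleen. It gave 49.6 and 38.1 on knockout lymph node, against 9.87 and 11.5 on wild-type lymph node. All 4 knockout arrays were above all 4 wild-type arrays, a pattern that 1.19% of the 45037 probe sets shared. In a fit over all of these without the filter it did not pass (limma adjusted p = 0.339 averaged over tissues), while 0.00666% of the probe sets did. The wild-type signals lay near or under the floor, so the size of the difference is not given. Probe set 1420412_at gave 15.3 and 65.3 on knockout spleen, against 36.3 and 4.89 on wild-type spleen, and 6.57 and 7.73 on knockout lymph node, against 8.12 and 21.0 on wild-type lymph node. Probe set 1459913_at gave 60.4 and 3.93 on knockout spleen, against 23.5 and 1.99 on wild-type spleen, and 35.998 and 21.3 on knockout lymph node, against 3.70 and 49.6 on wild-type lymph node. Neither was higher on both knockout arrays of a tissue, and 1420412_at was lower on both knockout lymph node arrays, with 3 of those 4 signals under the floor.

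For Tnfsf13b, probe set 1460255_at gave 6.37 and 51.1 on knockout spleen A and B, against 33.9 and 4.58 on wild-type spleen. In lymph node it gave 9.47 and 15.4 on the knockout arrays, against 31.2 and 66.6 on the wild-type arrays. The spleen groups overlapped, and the lymph node groups did not. In lymph node 30.9% of tested genes were separated in either direction, and this probe set was not among those tested. The other probe sets, 1445251_at and 1458047_at, overlapped in lymph node, the first with 13.1 and 12.9 in knockout, against 25.1 and 2.33 in wild-type. Probe set 1460255_at was above the floor on 5 of 8 arrays, as was 1445251_at, which ranged between 1.70 and 37.6. Probe set 1458047_at was above the floor on 2 arrays.

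**Figure D2:**
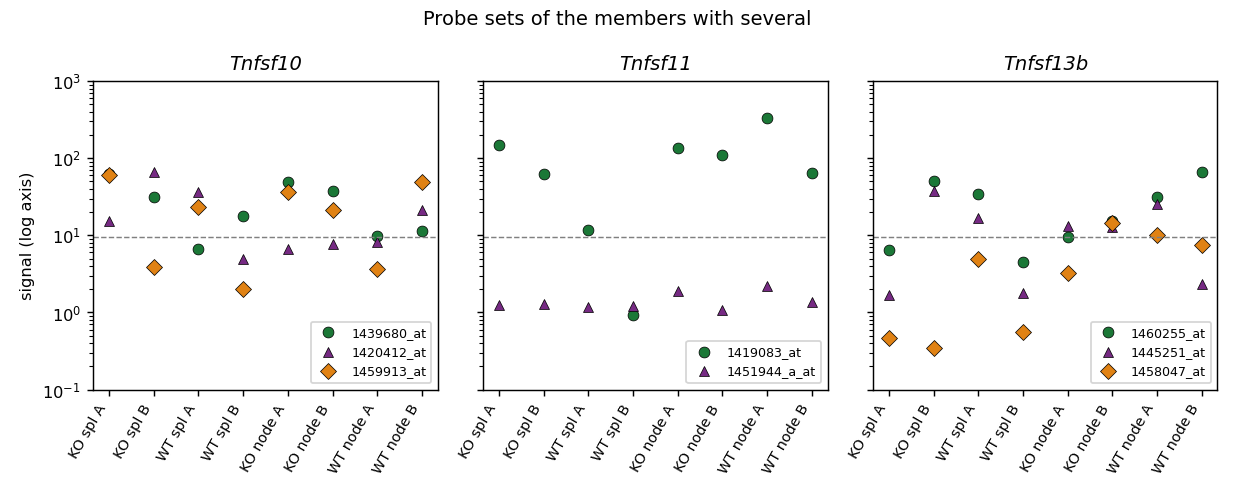
Scaled signal (log axis) of each probe set on each array for Tnfsf10, Tnfsf11 and Tnfsf13b, the members with more than 1 probe set (KO, Aire-knockout, WT, Aire-wild-type, spl, spleen, dashed line, floor of 9.58). For Tnfsf10 only 1439680_at has all 4 KO arrays above all 4 WT arrays, and the second probe set of Tnfsf11 lies under the floor throughout.

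The lymphotoxin genes behaved differently from each other. Lta, which is secreted as a homotrimer or anchored to the membrane by Ltb, gave 161 and 263 on knockout spleen A and B, against 203 and 178 on wild-type spleen. Its lymph node signals were 83.3 and 140.4 on the knockout arrays, against 85.8 and 64.1 on the wild-type arrays. The genotypes overlapped in both tissues, while every spleen array lay above every lymph node array. The knockout differences were 0.12 ± 0.41 in spleen (limma adjusted p = 0.963) and 0.54 ± 0.41 in lymph node (limma adjusted p = 0.9998). Without knockout spleen B the spleen value turned to -0.24, and without knockout spleen A it was 0.47. The lymph node value was 0.17 without knockout lymph node B and 0.92 without knockout lymph node A.

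Ltb, the membrane anchor of the lymphotoxin heterotrimer, gave 222 and 205 on knockout spleen A and B, against 329.8 and 461 on wild-type spleen. In lymph node it gave 279 and 116 on the knockout arrays, against 327 and 271 on the wild-type arrays. It was lower on both knockout arrays in spleen, and in lymph node only knockout B lay well under the wild-type pair. The differences were -0.87 ± 0.47 in spleen (limma adjusted p = 0.678) and -0.73 ± 0.47 in lymph node (limma adjusted p = 0.9998). The lymph node value was -0.09 without knockout lymph node B and -1.36 without knockout lymph node A. Averaged over tissues, the difference was -0.80 ± 0.33, with an interval of -1.58 to -0.0187 (limma adjusted p = 0.617), and was -0.48 without knockout lymph node B. Lta and Ltb lie on either side of Tnf on mouse chromosome 17. Tnf, the founding ligand of the family, ranged between 154 and 348 and had an averaged difference of -0.18 ± 0.28.

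Tnfrsf14, the only receptor among the members, gave 331 and 109 on knockout spleen A and B, against 54.2 and 57.8 on wild-type spleen. Its lymph node signals were 154 and 214 on the knockout arrays, against 84.3 and 181 on the wild-type arrays. Both knockout spleen arrays were above the wild-type pair, with A well above B, and the lymph node groups overlapped. The spleen difference was 1.77 ± 0.60, or 3.402-fold (limma adjusted p = 0.518), and lay between 0.97 without knockout spleen A and 2.57 without knockout spleen B. Knockout spleen A was also the array with the highest summed macrophage, neutrophil and monocyte, plasma cell, B cell and T cell markers. Not every marker of the B and T cell lists was raised there, and Cd3d, Cd3e, Cd3g, Zap70 and Lat were below both wild-type spleen arrays. The part of these markers in the Tnfrsf14 difference was not tested. In lymph node the difference was 0.56 ± 0.60, and it was 0.01 without wild-type lymph node A. The averaged difference was 1.16 ± 0.43, or 2.24-fold (limma adjusted p = 0.563), and was 0.76 without knockout spleen A. With the Y-linked covariate the spleen difference was 1.53.

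Tnfsf11, Ltb and Tnfrsf14 were the tested members whose averaged difference had an unadjusted p under 0.05 in limma, as had 8.00% of all tested genes. Their promoter windows are shown for that reason, from 250 bases before to 50 bases after an annotated start site. They are RefSeq sequences of mouse build GRCm38.p6, chr14:78307994-78308293 on the minus strand for Tnfsf11, chr17:35194257-35194556 on the plus strand for Ltb and chr4:154928028-154928327 on the minus strand for Tnfrsf14. Each is written 5′ to 3′ along its gene, with capitals marking bases that match a searched motif. RefSeq windows were matched for 6 of the 9 members, Tnfsf10, Tnfsf11, Tnfsf13b, Lta, Ltb and Tnfrsf14.
Tnfsf11: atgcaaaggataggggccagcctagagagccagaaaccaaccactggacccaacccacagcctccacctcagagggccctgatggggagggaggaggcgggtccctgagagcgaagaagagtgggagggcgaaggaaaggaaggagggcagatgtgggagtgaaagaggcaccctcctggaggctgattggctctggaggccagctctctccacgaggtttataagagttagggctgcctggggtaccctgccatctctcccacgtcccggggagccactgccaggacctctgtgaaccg
Ltb: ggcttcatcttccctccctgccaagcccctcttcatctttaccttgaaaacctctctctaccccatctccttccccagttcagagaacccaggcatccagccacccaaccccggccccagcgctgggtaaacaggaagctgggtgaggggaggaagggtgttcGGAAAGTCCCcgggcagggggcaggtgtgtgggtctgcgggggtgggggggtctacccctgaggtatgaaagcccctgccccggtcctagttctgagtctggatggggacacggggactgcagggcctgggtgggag
Tnfrsf14: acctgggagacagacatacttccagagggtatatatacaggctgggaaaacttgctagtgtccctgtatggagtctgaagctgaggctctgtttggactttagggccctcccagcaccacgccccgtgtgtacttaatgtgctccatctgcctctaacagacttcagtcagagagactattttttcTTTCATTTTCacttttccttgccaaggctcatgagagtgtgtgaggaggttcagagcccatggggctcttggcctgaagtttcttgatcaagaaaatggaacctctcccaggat

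The motifs, searched on both strands, were the kappaB consensus of NF-kappaB factors, the interferon-stimulated response element core (GAAA, any 2 bases, then GAAA) and the AP-1 core TGANTCA. The Ltb window held 1 kappaB match, GGAAAGTCCC, whose first base lay at -87 from the start site and which read as the consensus on the opposite strand. The Tnfrsf14 window held 1 match to the interferon-stimulated response element core, TTTCATTTTC at -64, also on the opposite strand. The Tnfsf11 window held none of the 3 motifs, and no matches overlapped in these windows. Of 32851 RefSeq promoter windows of the same length, 8.46% held the kappaB consensus, 3.44% the interferon-stimulated response element core and 7.81% the AP-1 core. A match describes these letters and is not evidence of binding.

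Read together against all genes, 6 of the 7 tested members had a spleen difference above 0, against 42.6% of the 11557 genes. Of the 7, 5 were higher on both knockout spleen arrays than on both wild-type arrays, against a background of 13.3%, and Ltb was lower on both, against 23.9%. In 4 members, Tnfsf4, Tnfsf9, Tnfsf11 and Tnfrsf14, the spleen difference had an unadjusted p under 0.05 in limma and was above 0, against 3.86% of genes. None passed after adjustment, as for 0% of all genes. The median spleen difference was 0.86 over the 7 members and -0.09 over all tested genes. The members were chosen with results of these arrays known, so these counts are a description.

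In lymph node 3 of 7 members had a difference above 0, against 46.8% of genes, and none had an unadjusted p under 0.05, against 3.38%. The median was -0.06 over the members and -0.03 over all genes. None of the 7 separated knockout from wild-type lymph node, where 30.9% of genes did so in either direction. The averaged contrast had 6 of 7 members above 0, against 43.3%, with medians of 0.40 and -0.06. An exact two-sided permutation test of genotype within tissue over 36 assignments cannot go below p = 0.0556. It gave p = 0.111 each for Tnfsf4, Ltb and Tnfrsf14, p = 0.222 for Tnfsf11, p = 0.278 for Tnfsf9, p = 0.333 for Lta and p = 0.5 for Cd70 (exact permutation test). That test could therefore call no gene, and both it and the averaged contrast count the tissues as separate samples. The spleen effect minus the lymph node effect was above 0 for 5 of 7 members, against 46.2% of genes, with a median of 1.03 over the members and -0.06 over all genes. Its limma adjusted p was 0.999 for each of the 7.

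**Figure D3:**
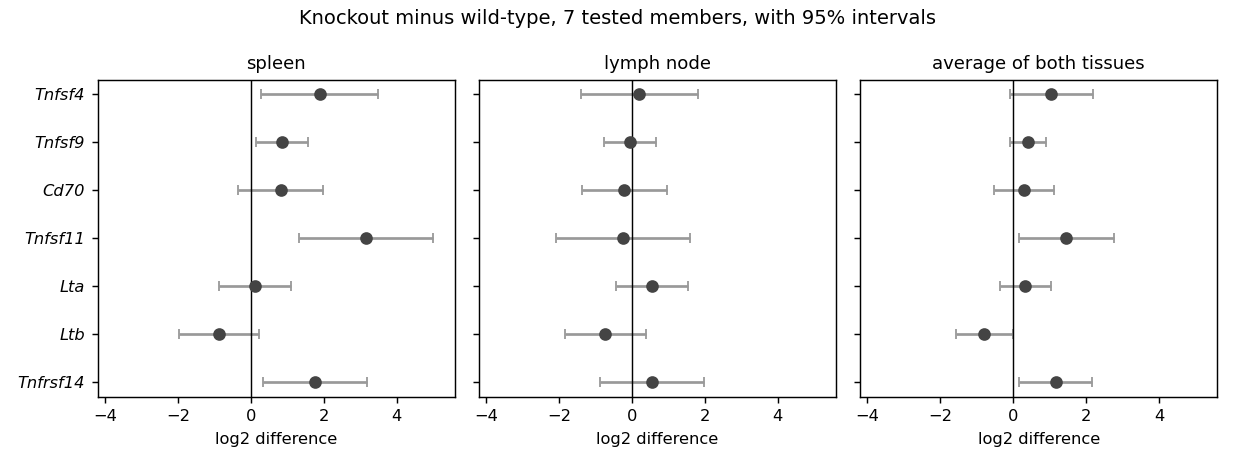
Log2 difference, Aire-knockout minus wild-type, of the 7 tested members in spleen, in lymph node and averaged, with 95% intervals from limma. In spleen the intervals of Tnfsf4, Tnfsf9, Tnfsf11 and Tnfrsf14 lie above 0, in lymph node all 7 cross 0, and no member passes after adjustment over all genes.

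Spleen was then set against lymph node over both genotypes. Of the 7 members 2 had a difference above 0, against 55.7% of genes, and 4, Tnfsf4, Tnfsf9, Tnfsf11 and Lta, had an unadjusted p under 0.05 in limma, against 10.7%. The median was -0.61 over the members and 0.06 over all genes. Tnfsf9 was lower on all 4 spleen arrays than on all 4 lymph node arrays, against a background of 1.90% of genes, with a difference of -1.09 ± 0.21 (limma adjusted p = 0.1998, 2.13-fold lower). Lta was higher on all 4 spleen arrays, against 3.82%, with a difference of 1.14 ± 0.29 (limma adjusted p = 0.285, 2.21-fold). Neither passed, and leaving out 1 array at a time kept Tnfsf9 between -1.17 and -1.02 and Lta between 0.95 and 1.33. For Tnfsf9 the adjusted p over the alternatives ranged between 0.0604 and 0.443. The spleen minus lymph node differences of Tnfsf4, -1.64 ± 0.48 (limma adjusted p = 0.329), and Tnfsf11, -2.07 ± 0.55 (limma adjusted p = 0.287), did not pass, and their arrays overlapped. Those of Cd70, -0.61 ± 0.35, Ltb, 0.32 ± 0.33, and Tnfrsf14, -0.54 ± 0.43, were within 2 standard errors of 0. Each of these moved with single arrays, to -0.32 for Cd70 and 0.00146 for Ltb without knockout lymph node B, and to -0.14 for Tnfrsf14 without knockout spleen B.

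Among the wild-type arrays alone, spleen was below lymph node without overlap for Tnfsf4, Tnfsf9, Cd70, Tnfsf11 and Tnfrsf14, against 16.1% of genes, and above it for Lta and Ltb, against 25.5%. Among the knockout arrays only Tnfsf9 was lower without overlap, against 12.9%, and Lta higher, against 17.6%. The order of group means for Tnfsf9 was wild-type lymph node, knockout lymph node, knockout spleen and wild-type spleen, highest first, and only the lymph node pair overlapped. For Tnfsf4 it was knockout lymph node, wild-type lymph node, knockout spleen and wild-type spleen. Knockout spleen overlapped wild-type lymph node there, since its A array at 262 exceeded the wild-type lymph node A array at 248. For Lta the order was knockout spleen, wild-type spleen, knockout lymph node and wild-type lymph node, with overlap between the genotypes of each tissue.

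**Figure D4:**
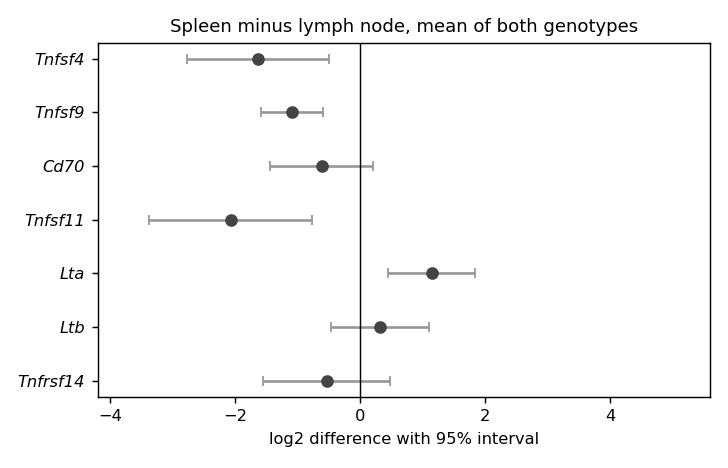
Log2 difference, spleen minus lymph node averaged over genotypes, of the 7 tested members with 95% intervals from limma. Intervals of Tnfsf4, Tnfsf9 and Tnfsf11 lie below 0 and that of Lta above 0, and none passes after adjustment.

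Across the 8 arrays some members tracked each other. Pearson's r of log2 signal was 0.84 between Tnfsf4 and Tnfsf9, 0.82 between Tnfsf9 and Tnfsf11, 0.80 between Tnfsf4 and Tnfsf11, 0.79 between Tnfsf9 and Cd70 and 0.74 between Tnfsf4 and Tnfrsf14. It was -0.70 between Tnfsf9 and Lta, -0.68 between Ltb and Tnfrsf14 and -0.09 between the partners Lta and Ltb. The arrays share tissue, genotype and cell makeup, so these values describe a shared pattern of levels only. The named gene most like each member in level over the 8 arrays was Jak2 for Tnfsf4 (r = 0.98), Ift172 for Tnfsf9 (r = 0.98), Nit2 for Cd70 (r = 0.97) and Ahrr for Tnfsf11 (r = 0.96). For Lta it was Mfsd12 (r = 0.95), for Ltb Cdan1 (r = 0.96) and for Tnfrsf14 Pofut1 (r = 0.97). Next in order were Ptpro, Slfn5, Rassf5, Aard, Cir1, Map9 and Cdc42ep2, at r between 0.94 and 0.98. With 8 arrays and 11557 genes, high values arise for many genes.

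The receptors of the ligands were read from the same fit. Of 12 listed receptors 11 were tested, and 4 had an averaged difference above 0, against 43.3% of all tested genes. The median over the 11 was -0.03. Those of Tnfsf4 and Tnfsf9, Tnfrsf4 and Tnfrsf9, were both lower in knockout with an unadjusted p under 0.05 in limma, against a background of 4.34% in that direction, and neither passed. Tnfrsf4 (OX40) gave 1333 and 1913 on knockout spleen A and B, against 2662 and 2913 on wild-type spleen, and 942 and 1309 on knockout lymph node, against 1403 and 1870 on wild-type lymph node. Both tissues were separated by genotype, and the averaged difference was -0.67 ± 0.25 (limma adjusted p = 0.575). Tnfrsf9 (4-1BB) gave 700 and 1775 on knockout spleen A and B, against 2485 and 2442 on wild-type spleen, and 879 and 1350 on knockout lymph node, against 1481 and 2152 on wild-type lymph node. It too was lower on both knockout arrays of each tissue, with an averaged difference of -0.93 ± 0.36 (limma adjusted p = 0.593). Separation within a tissue occurred downward in 23.9% of tested genes in spleen, and in either direction in 30.9% in lymph node. The share of genes separated in both tissues was not counted.

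Among the other receptors, Cd27, which binds Cd70, had an averaged difference of -0.03 ± 0.47, and Tnfrsf11a (RANK), which binds Tnfsf11, one of -0.26 ± 0.37. Tnfrsf11b (osteoprotegerin), the soluble decoy for Tnfsf11, gave 1082 and 234.5 on knockout spleen A and B, against 120 and 445 on wild-type spleen, so its spleen groups overlapped (difference 1.12 ± 0.83). Tnfrsf10b, the death receptor for Tnfsf10, had an averaged difference of -0.54 ± 0.38, and Tnfrsf13c (BAFF receptor) one of -0.02 ± 0.52. Ltbr, the receptor of the lymphotoxin heterotrimer, had 1.19 ± 0.93, with signals between 4.23 and 109.6. None of these had an unadjusted p under 0.05.

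Of the partners of Tnfrsf14, Btla gave 553 and 381 on knockout spleen A and B, against 228 and 93.2 on wild-type spleen. In lymph node it gave 235 and 386 on the knockout arrays, against 175 and 211 on the wild-type arrays. Each knockout pair was above its wild-type pair, and the averaged difference was 1.15 ± 0.36 (limma adjusted p = 0.493), which did not pass. Its unadjusted p in limma was under 0.05, as for 8.00% of tested genes. Upward separation in spleen was shared by 13.3% of tested genes, and separation in either direction in lymph node by 30.9%. The share separated in both tissues was not counted. Cd160 had an averaged difference of -0.21 ± 0.36. The ligand Tnfsf14 was not tested, with signals between 1.47 and 20.2.

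**Figure D5:**
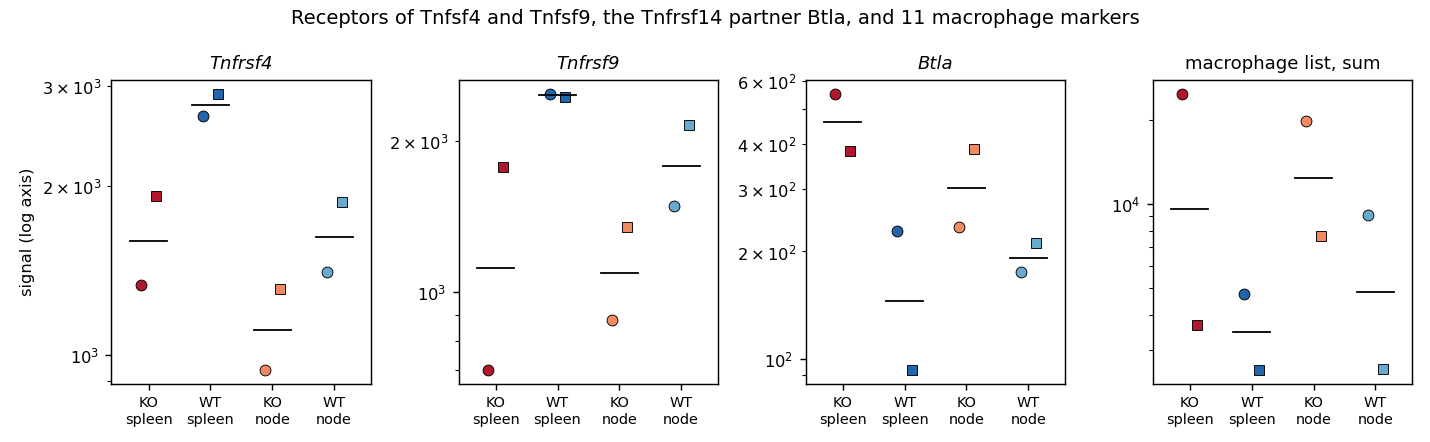
Scaled signal (log axis) of the receptors Tnfrsf4 and Tnfrsf9, of Btla, and of 11 macrophage markers summed, by group (KO, Aire-knockout, WT, Aire-wild-type, circles, A arrays, squares, B arrays, bars, geometric mean). Both KO arrays are below both WT arrays of the same tissue for Tnfrsf4 and Tnfrsf9 and above them for Btla, while the macrophage sum is highest on the 2 KO A arrays.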

How the data were processed

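Signals of 45101 probe sets on 8 arrays were used as intensity values deposited by the authors, on a linear scale, made with MAS5 per the submitters' processing notes. The sources used here give no version, target or detection calls, and each array's 2% trimmed mean was 250. Deposited medians ranged between 53.8 and 65.3. After 64 control probe sets were left out, arrays were scaled to a common median, values under 9.58 were raised to it, and log2 was taken. Of the 45037 others, 34945 had 1 gene symbol, 932 several and 9160 none. The probe set with the highest mean log2 signal represented a gene. In R 4.3.3, limma 3.58.1 fitted 4 group means to 11557 genes (4 residual and 2.96 prior degrees of freedom) and took 5 contrasts. The procedure was tested on simulated data. The number of arrays limits precision. The labels do not tie the arrays to separate animals, so p-values reflect only the spread among the arrays. The A and B arrays of each group differed in sex-linked signals, so they were not repeats of the same sample. The spread includes that difference.

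The named genes were the 9 members, Aire, receptors and partners of members, genes among the 4 of a related TNF list with the smallest p for the averaged knockout effect, and the named genes most like each member. Xist and Eif2s3y were chosen after their values were seen, and the measured T and B cell markers were named after their sums were seen. Members and lists were chosen with earlier results of these data known. Of the listed genes, 25 were not matched and are not analysed here. Alternatives covered scaling, floor, filter, probe set choice, prior, a replicate block, a Y-linked covariate and arrays left out.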

Additional observations from a re-analysis of the deposited data

How the results depend on the processing

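The 2 arrays a group limit the precision, and Tnfsf10 and Tnfsf13b lay too near the floor to be tested. No gene was called in any of the 5 contrasts (unadjusted p under 0.05 in limma for 973 in spleen, 391 in lymph node, 924 averaged, 395 for the difference between tissues and 1242 for spleen minus lymph node). Of 808 values of members and Aire under alternatives, 791 kept sign and side of the threshold, 16 turned sign, and 1, Aire averaged with a trended robust prior, passed (adjusted p 0.0492). The causes were not tested.

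For spleen minus lymph node, 1 gene was called with quantile normalization, with no median scaling, with no filter and with the mean of probe sets, 3 with a floor at the 40th percentile, 48 with the trended robust prior, and 0 to 2 with 1 array left out. For the knockout effect in spleen, 2 probe sets were called when all were fitted and 1 gene with the trended robust prior. In lymph node, 3 probe sets were called when all were fitted. Averaged, 1 gene was called with no floor, 2 with the 40th percentile floor, 3 with all probe sets, 6 with the trended robust prior, and 0 to 2 with 1 array left out. No member was among those called.

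With the Y-linked covariate the difference was -0.0839 for Tnfsf4 and 0.34 for Tnfsf11 in lymph node and -0.0409 for Cd70 averaged. Without both knockout A arrays, chosen after seeing the data, it was -0.0610 for Tnfsf4, 0.0921 for Tnfsf9 and 0.38 for Cd70 in lymph node, and 0.43 for the difference between tissues of Ltb. With 1 array left out, lymph node differences ranged between -0.0610 and 0.46 for Tnfsf4, -0.21 and 0.0921 for Tnfsf9, -0.80 and 0.38 for Cd70, and -1.43 and 0.94 for Tnfsf11. The Lta spleen difference ranged between -0.24 and 0.47, and the Ltb difference between tissues between -0.78 and 0.49.

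With the array letter as a replicate block 0 genes were called in each contrast (1208, 532, 1148 and 491 at an unadjusted p under 0.05 in limma for spleen, lymph node, average and difference, and 1488 for spleen minus lymph node). Deviations of same-letter arrays correlated at 0.0554 in spleen and 0.219 in lymph node between genotypes, and at 0.306 in knockout and 0.0654 in wild-type between tissues, over 11557 genes. The labels do not say that the letters pair samples, and these correlations do not show it. Between the tissues, however, sex-linked signals went together by genotype and letter, and the labels do not say whether those arrays share animals. Xist gave 14.6 in spleen and 23.1 in lymph node on the knockout B arrays, against 5527 and 6355 on knockout A, and Eif2s3y gave 21.2 and 3.8007 on the wild-type A arrays, against 1749 and 1692 on wild-type B. The knockout A arrays also carried Y-linked signals, with a mean log2 of 8.01 in spleen and 7.31 in lymph node. On wild-type A that mean was 4.13 and 3.95, so sex-linked signals were not balanced between the genotypes. With genotype and letter as a replicate block, the members' adjusted p in limma for spleen minus lymph node lay between 0.245 and 0.721. With each genotype and letter as 1 unit, added after seeing the data, 0 genes were called for the averaged knockout effect (688 at an unadjusted p under 0.05) and for the difference between tissues (560), and the members' adjusted p for the averaged effect lay between 0.790 and 0.947.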

Other observations

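Other genes of the TNF system were read from the same limma fit, and none passed. Of 15 other TNF receptor superfamily genes 11 were tested, 8 had an averaged difference above 0, against 43.3% of all tested genes, and the median was 0.15. Tnfrsf21 (1.02 ± 0.54 SE), Ngfr (0.56 ± 0.31) and Tnfrsf18 (-0.51 ± 0.43) had the smallest unadjusted p in limma for the averaged difference. Tnfrsf8 (CD30), a receptor of activated lymphocytes, differed by 1.19 ± 0.35 in spleen and by -0.73 ± 0.35 in lymph node. Averaged, Tnfrsf8 differed by 0.23 ± 0.25, and its signals were low, between 23.7 and 63.3. The difference between the tissues was 1.92 ± 0.50 (limma adjusted p = 0.999). Of 15 receptor adaptors and death-domain genes 13 were tested and 2 had an averaged difference above 0, with a median of -0.17, against 43.3% and -0.06 over all tested genes. Casp8 was among the 2, with 0.58 ± 0.30 averaged (limma adjusted p = 0.691). Traf2, which links TNF receptors to NF-kappaB and JNK signalling, had -0.66 ± 0.23 averaged (limma adjusted p = 0.540). Map3k14 (NIK), the kinase of the alternative NF-kappaB pathway downstream of several of these receptors, had -1.19 ± 0.38 in spleen (limma adjusted p = 0.490), 0.05 ± 0.38 in lymph node and -0.57 ± 0.27 averaged. Of 10 other ligands 6 were measured, and only Tnf was tested.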
